A study of Homo sapiens with 12 samples.

Results

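The effect of BIBR1532 on gene expression was examined in A375, an established human metastatic melanoma cell line, as the 2 libraries of cells given the compound against the 2 libraries of control cells. Libraries were assigned to these groups by their labels, and they make up 4 of the 12 libraries of the series. BIBR1532 is a small molecule made to inhibit telomerase, and it was given at 25 µM. The series also holds A375 cells given 6-thio-dG, a thioguanine deoxynucleoside that telomerase can use, at 5 µM (2 libraries), and a second melanoma line, LOX-IMVI BR, with the same 3 treatments (6 libraries). The sources used here give neither the vehicle of the control nor the length of exposure, and do not say what BR stands for. RNA came from whole cultures in 6-well plates and was sequenced without keeping the strand.

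Telomerase is a ribonucleoprotein in which the reverse transcriptase TERT copies an RNA template onto chromosome ends, with dyskerin and its partners holding the RNA. Telomere ends are covered by the shelterin proteins. BIBR1532 binds TERT outside the site where nucleotides are joined and slows the enzyme's repeated addition of telomere repeats, and at high concentration it is also known to act on cells in ways that do not need telomere loss.

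The BIBR1532 libraries held 21692316 and 19546597 counts, against 25822381 and 14817553 in the control libraries. Control replicate 2 was the shallowest of these and stood apart: a count was found for 34297 genes, against 40550 to 41760 genes in the other 3 libraries, and 8.78% of its counts fell on its top 10 genes, against 4.72% to 5.20% in the others. Levels are given in CPM, counts scaled to a library of fixed size, after TMM scaling, which corrects for differences in composition. Between replicates, genes differed by a median of 0.214 (log2, absolute) with BIBR1532 and 0.628 in control, so the controls were the more spread pair. The spread between replicates in the 6 A375 libraries corresponded to a biological coefficient of variation of 36.1%. The p-values cover only the spread between these samples. Only part of the markers of other cell types were low. Under 1 CPM in all 4 libraries were 7 of 13 leukocyte, 6 of 10 epithelial and 5 of 9 endothelial markers. So were 4 of 12 keratinocyte and 2 of 11 fibroblast markers. Others were well expressed, such as the epithelial keratin KRT18, at 242.1 and 220.5 CPM with BIBR1532, against 226.9 and 291.3 CPM in control. KRT8 had 259.3 and 246.5 CPM with BIBR1532, against 70.63 and 182.5 CPM in control. PTPRC, which marks leukocytes, had at most 2 counts in each of the 4 libraries, EPCAM at most 6 and PECAM1 at most 1. A375 expressed SOX10, the neural crest factor of the melanocyte lineage, at 1411 and 1252 CPM with BIBR1532, against 523.9 and 582.2 CPM in control (not called, adjusted p = 0.134), whereas the pigment gene TYR and the receptor gene KIT were listed at 0 in all 4 libraries. In cultures such as these, fewer cells of a state and less RNA per cell cannot be told apart.

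More genes were called higher than lower with BIBR1532 in the fit of the 6 A375 libraries, a balance that depended on the fit. Of 24026 genes tested, 790 (3.29%) were higher and 134 (0.558%) were lower at a Benjamini-Hochberg adjusted p under 0.05 by edgeR's quasi-likelihood test. Genes with symbols made up 433 of the rises and 73 of the falls, and the others were NONCODE long noncoding genes. In every called gene the 2 BIBR1532 libraries lay beyond both control libraries. Picking genes by this test itself favours such separation, so here and for single called genes below it is a description and no added support. The share of all tested genes that were separated in this way is not given here. The changes were large, with median log2 fold changes of 3.08 among the rises and -2.65 among the falls, and 749 rises and 126 falls were over 4-fold. Of the rises, 507 had a control mean under 1 CPM, so most of the rises were in genes close to silent in control cells. Another scaling, by upper quartiles, shifted the median log2 fold change over all genes by 0.19 and gave 1690 higher and 1025 lower genes. The share of calls that were higher was thus 85.5% with TMM scaling and 62.2% with upper-quartile scaling. The balance turned with the 4 BIBR1532 and control libraries alone (1668 higher and 1981 lower, 45.7% higher), and with no filter on low counts (1441 and 1499, 49%). It was near even with limma voom (985 and 909, 52%) and with the 12 libraries of both lines (2473 and 2121, 53.8%).

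**Figure D1:**
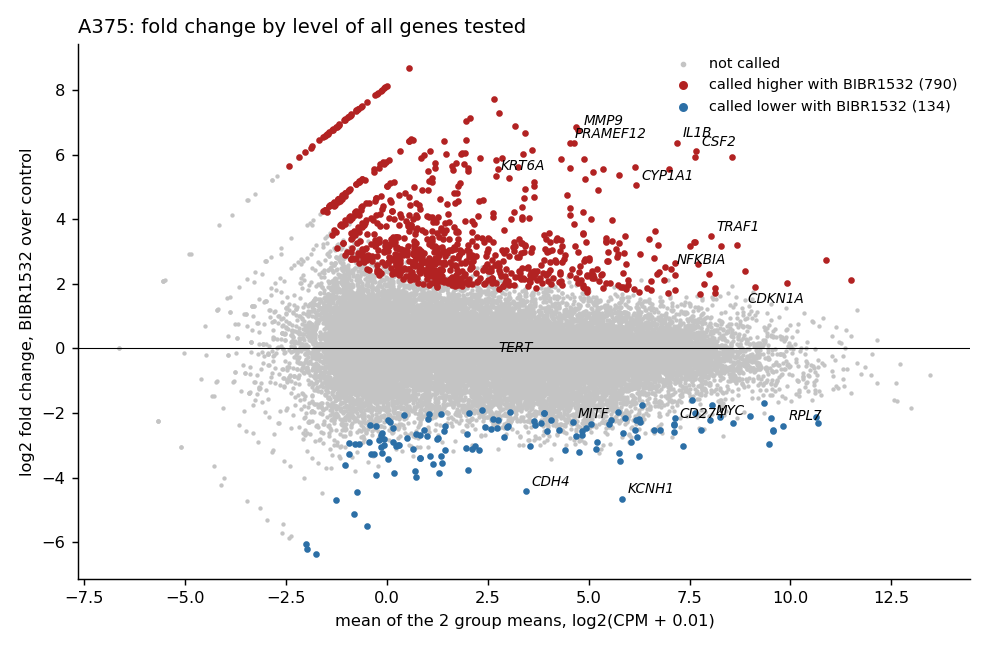
Each point is 1 of the 24026 genes tested in A375. The horizontal axis is the mean of the BIBR1532 and control group means as log2(CPM + 0.01), and the vertical axis is the log2 fold change of BIBR1532 over control. Called rises (790) are red, called falls (134) are blue, and a few named genes are marked.

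The control libraries set how firmly these calls can be read. With either control library left out, edgeR called 0 genes in both directions, although 5608 genes (without control replicate 1) and 4067 genes (without control replicate 2) had an unadjusted p under 0.05. DESeq2 on the same 5 libraries called 571 higher and 391 lower genes without control replicate 1, and 550 higher and 65 lower without control replicate 2. Of the 924 genes called with all libraries, 415 and 498 were among these. With a BIBR1532 library left out, edgeR called 337 higher and 10 lower genes (without replicate 1) and 348 higher and 34 lower (without replicate 2).

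The telomerase genes came first among those followed, since the compound is directed at this enzyme. TERT was measured at 5.65 and 5.74 CPM with BIBR1532, against 9.68 and 3.84 CPM in control. The 2 BIBR1532 values lay between the 2 control values, and the log2 fold change was -0.26 ± 0.59 (SE, adjusted p = 0.833). Its sign rested on control replicate 1, without which the fold change was 0.57. None of the 13 telomerase genes tested was called in either direction by edgeR, and 3 had an unadjusted p under 0.05. Over all genes with symbols 3149 of 13595 did, and counts of this kind in any list are to be read beside that share. DESeq2 called none of the telomerase genes and limma voom 1 higher and 1 lower. Their median log2 fold change was -0.51, against -0.16 over all genes with symbols. DKC1, which encodes dyskerin, had 282 and 300 CPM with BIBR1532, against 540 and 567 CPM in control, and was not called (log2 fold change -0.93, adjusted p = 0.192). None of the 15 genes of shelterin and telomere end protection was called by edgeR, with a median of -0.29. Of these, 5 had an unadjusted p under 0.05, and DESeq2 called none and limma voom 1 lower. RNA levels of these genes do not measure the activity of the enzyme.

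Genes for secreted inflammatory proteins were among the rises. Of 16 chemokine genes, 6 were tested and 5 were called higher, with none lower. Of 17 interleukin and colony stimulating factor genes, 13 were tested and edgeR called 4 higher and none lower, while DESeq2 called 5 higher and 1 lower and limma voom 5 higher and 2 lower. The medians were 3.38 and 1.52 on the log2 scale, against -0.02 over all genes tested. These lists hold genes that are close to silent in control cells, which passed the filter on low counts through their level with BIBR1532, so the counts are a description of the tested members only.

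IL1B, the gene of the cytokine interleukin-1 beta, had 301 and 279 CPM with BIBR1532, against 3.40 and 3.57 CPM in control. Replicates were close in both groups and the groups were far apart, with a log2 fold change of 6.38 ± 0.49 (adjusted p = 0.000328), or 83.1-fold. CSF2, which encodes the growth factor GM-CSF, had 420 and 381 CPM with BIBR1532, against 6.04 and 5.45 CPM in control, a log2 fold change of 6.12 ± 0.54 (adjusted p = 0.000472). IL6, another cytokine of inflammation, had 54.3 and 52.8 CPM with BIBR1532, against 4.24 and 4.73 CPM in control (log2 fold change 3.58 ± 0.49, adjusted p = 0.00253). IL1A was 93.2 and 116 CPM with BIBR1532, against 13.1 and 20.8 CPM in control (log2 fold change 2.63 ± 0.53, adjusted p = 0.0176). In each of these genes the groups did not overlap. Not every member was higher. IL11, a cytokine of the IL6 family, had 313.7 and 290.1 CPM with BIBR1532, against 805.3 and 943.8 CPM in control, and was not called (-1.53 ± 0.44, adjusted p = 0.0797). It was called lower after GC correction (adjusted p = 0.0119).

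The chemokines that were called attract neutrophils or lymphocytes. CXCL8, the gene of interleukin-8, had 303 and 359 CPM with BIBR1532, against 26.7 and 46.3 CPM in control (log2 fold change 3.18 ± 0.57, adjusted p = 0.0102). CXCL2 was 48.1 and 44.9 CPM with BIBR1532, against 4.89 and 1.34 CPM in control (3.86 ± 0.64, adjusted p = 0.00683). CXCL3 was 31.1 and 28.1 CPM with BIBR1532, against 2.87 and 2.05 CPM in control (3.57 ± 0.51, adjusted p = 0.00294). The 2 control libraries of CXCL2 differed more from each other than those of CXCL3, and in both genes the control values stayed well below those with BIBR1532. CX3CL1, fractalkine, reached 11.3 and 11.9 CPM with BIBR1532, against 1.91 and 1.79 CPM in control. CXCL11, an interferon-inducible chemokine, had 37 counts with BIBR1532 and 0 in control, at least 10.7-fold higher against a limit of 3 counts over the control group. CXCL16 was the tested chemokine that was not called, with 25.3 and 22.8 CPM with BIBR1532, against 23.4 and 17.2 CPM in control. CXCL1, CXCL5, CCL2 and CCL3 had at most 1 count in each of the 4 libraries.

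**Figure D2:**
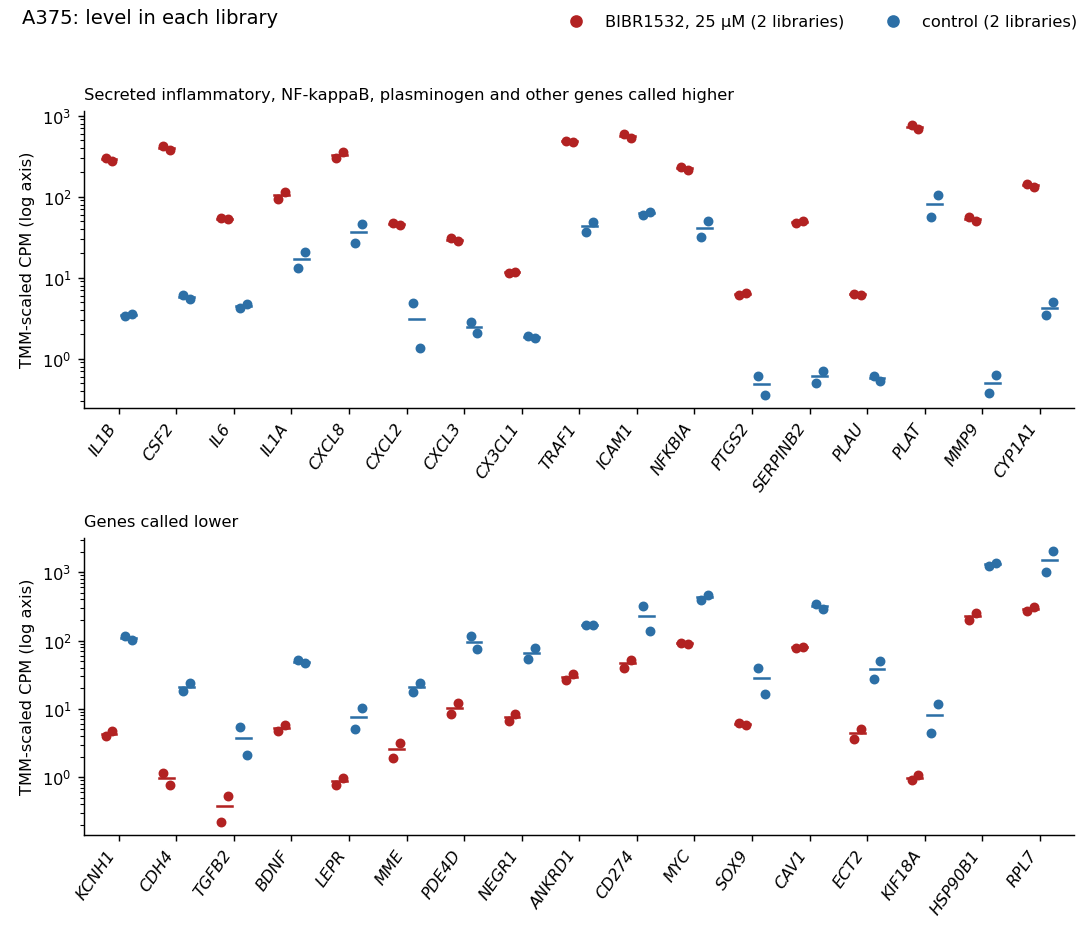
Level of 34 called genes in each of the 4 A375 libraries, in TMM-scaled CPM on a log axis. Points are single libraries, BIBR1532 in red on the left and control in blue on the right of each gene, and bars are group means. In each gene shown both BIBR1532 libraries lie on one side of both control libraries, and the control pair is usually the more spread of the 2 pairs.

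The NF-kappaB transcription factors drive many of these genes and also their own inhibitors. Of 20 genes for NF-kappaB subunits and feedback proteins, 18 were tested, and edgeR called 3 higher, DESeq2 7 and limma voom 10, none of them lower, with a median log2 fold change of 1.34. TRAF1, a signalling adaptor, had 491 and 473 CPM with BIBR1532, against 36.7 and 49.4 CPM in control (log2 fold change 3.49 ± 0.44, adjusted p = 0.00155). ICAM1, an adhesion receptor for leukocytes, had 595 and 532 CPM with BIBR1532, against 60.2 and 65.2 CPM in control (3.17 ± 0.45, adjusted p = 0.00305). NFKBIA, which encodes the inhibitor IkappaB-alpha, had 236 and 212 CPM with BIBR1532, against 31.5 and 49.7 CPM in control (2.46 ± 0.44, adjusted p = 0.00934). These 3 genes were separated between groups by far more than the replicates differed. The 5 subunit genes were not called by edgeR in the A375 fit. NFKB2 had 869 and 783 CPM with BIBR1532, against 197 and 299 CPM in control (1.73 ± 0.45, adjusted p = 0.0522), and was called after GC correction (adjusted p = 0.0118), as was NFKB1 (adjusted p = 0.0237). RELB had 171 and 158 CPM with BIBR1532, against 45.9 and 85.1 CPM in control (1.33 ± 0.46, adjusted p = 0.129). RELA, the main activating subunit, was 252 and 240 CPM with BIBR1532, against 196 and 191 CPM in control.

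Promoter sequences are shown for the called inflammatory genes, to set their letters beside the shared rise. Promoters from 250 bases before to 50 bases after the gene start were read from RefSeq on GRCh38.p14 for 11 of the 12 called genes of the 3 lists, all but CX3CL1. The letters GGANTTTCC, a form of the NF-kappaB site, were searched on both strands and were found in 7 of these 11 promoters. The same letters were in 577 of 35116 promoters of that length (1.64%), and in 21 of 315 promoters of all genes called higher (6.67%), which include these 11. The lists were written by hand and hold genes known to be driven by NF-kappaB, so the 7 of 11 is a description and not a test. The 7 stretches that follow were picked because they hold a match, which is in capitals, with 20 bases on each side, in the direction of the gene. In CXCL11, ICAM1 and NFKBIA the match is on the opposite strand and so appears as GGAAATTCC.
CXCL2, chr4:74099244-74099292, minus strand: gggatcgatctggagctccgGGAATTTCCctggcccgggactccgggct
CXCL3, chr4:74038739-74038787, minus strand: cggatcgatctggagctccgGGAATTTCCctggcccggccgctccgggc
CXCL8, chr4:73740458-73740506, plus strand: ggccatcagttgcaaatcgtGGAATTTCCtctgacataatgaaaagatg
IL6, chr7:22727108-22727156, plus strand: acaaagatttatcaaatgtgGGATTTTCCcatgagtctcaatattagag
CXCL11, chr4:76036117-76036165, minus strand: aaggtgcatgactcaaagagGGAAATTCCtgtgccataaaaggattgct
ICAM1, chr19:10270914-10270962, plus strand: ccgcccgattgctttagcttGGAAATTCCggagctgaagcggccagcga
NFKBIA, chr14:35404802-35404850, minus strand: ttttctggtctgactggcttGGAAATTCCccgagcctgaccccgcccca
Relative to the gene start, the matches began at positions -72 in IL6, -75 in CXCL11, -77 in CXCL2, -78 in CXCL3, -81 in NFKBIA, -91 in CXCL8 and -186 in ICAM1, and NFKBIA had a further match at -242. No match was found in the windows of IL1B, CSF2, IL1A and TRAF1, which says only that these letters are absent there. The windows of IL1B and CSF2, the genes of these lists with the smallest adjusted p, held none of the 3 motifs searched and are given whole.
IL1B, chr2:112836730-112837029, minus strand: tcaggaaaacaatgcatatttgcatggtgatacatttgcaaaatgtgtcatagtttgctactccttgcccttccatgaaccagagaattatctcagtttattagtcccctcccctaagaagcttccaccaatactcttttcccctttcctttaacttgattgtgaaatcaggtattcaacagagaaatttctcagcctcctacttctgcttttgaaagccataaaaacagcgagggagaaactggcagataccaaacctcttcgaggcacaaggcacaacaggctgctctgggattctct
CSF2, chr5:132073539-132073838, plus strand: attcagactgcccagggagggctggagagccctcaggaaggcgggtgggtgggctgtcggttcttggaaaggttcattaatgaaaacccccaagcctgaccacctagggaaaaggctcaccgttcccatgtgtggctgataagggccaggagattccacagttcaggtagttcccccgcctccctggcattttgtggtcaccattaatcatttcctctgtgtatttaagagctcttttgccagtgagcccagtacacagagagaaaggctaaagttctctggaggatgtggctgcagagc
 The AP-1 letters TGANTCA were in 3 of the 11 promoters, in 50 of 315 promoters of all genes called higher (15.9%) and in 7.71% of all promoters. Only letters were compared, and a match shows neither binding nor a cause.

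Immediate early transcription factors are switched on by cells within minutes of a signal. Among 17 genes of AP-1 and the EGR family, edgeR called 4 higher and none lower. DESeq2 and limma voom each called 4 higher and 1 lower. Over the list 10 members lay above 0 and 7 below. EGR1 had 820 and 749 CPM with BIBR1532, against 212 and 87.2 CPM in control (log2 fold change 2.39 ± 0.53, adjusted p = 0.0273), and was not called after GC correction (adjusted p = 0.0539). EGR2 had 36.8 and 35.3 CPM with BIBR1532, against 5.20 and 1.70 CPM in control (3.35 ± 0.63, adjusted p = 0.0119). FOS had 50.2 and 46.8 CPM with BIBR1532, against 14 and 13.2 CPM in control (1.83 ± 0.46, adjusted p = 0.0478). Both controls were below both BIBR1532 libraries in each gene, by the least in EGR1 and FOS. EGR4 was the remaining rise, at 3.09 and 4.43 CPM with BIBR1532, against 0.612 and 0.982 CPM in control. FOSL2, a member of AP-1, had 103 and 95.6 CPM with BIBR1532, against 229 and 271 CPM in control. It was not called by edgeR (-1.33 ± 0.41, adjusted p = 0.0941), but was called lower after GC correction (adjusted p = 0.0106). Genes that ERK signalling switches on as its own brakes were followed as a contrast, since A375 depends on this pathway. None of these 18 genes was called by edgeR, DESeq2 or limma voom, none had an unadjusted p under 0.05, and their median was 0.28. CCND1, the cyclin that ERK signalling induces, had 1055 and 1011 CPM with BIBR1532, against 999 and 699 CPM in control.

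Some genes for proteases and the matrix were called higher in several lists. MMP9, a gelatinase, had 55.7 and 49.9 CPM with BIBR1532, against 0.382 and 0.625 CPM in control (log2 fold change 6.76 ± 0.63, adjusted p = 0.000472). Among 19 tested genes of matrix proteases and their inhibitors, MMP9, MMP10, TIMP1 and TIMP3 were called higher, and MMP3 and LOX, the gene of lysyl oxidase, lower. TIMP1, an inhibitor of such proteases, had 3372 and 3207 CPM with BIBR1532, against 571 and 410 CPM in control (2.75 ± 0.49, adjusted p = 0.00934). Over the list the direction was mixed, with 10 members above 0, 9 below and a median of 0.22. In the plasminogen list 4 of 13 tested genes were called higher and none lower. SERPINB2, which blocks plasminogen activators, had 47.8 and 50.9 CPM with BIBR1532, against 0.497 and 0.714 CPM in control (6.37 ± 0.59, adjusted p = 0.000472). PLAT, the tissue activator, had 776 and 695 CPM with BIBR1532, against 56.3 and 104 CPM in control (3.20 ± 0.47, adjusted p = 0.00362). PLAU and TFPI2 were the other rises, with log2 fold changes of 3.41 and 2.51. PTGS2 and PTGS1, the enzymes that start prostaglandin synthesis, were the 2 called genes of 8 tested in their list, with log2 fold changes of 3.60 and 2.56. Of 24 genes of integrins and adhesion matrix, edgeR called LAMB3, FN1 and THBS2 higher and none lower. DESeq2 called 4 higher and 1 lower, and limma voom 5 higher and 1 lower. Over the list 14 members lay above 0 and 10 below, with a median of 0.49. No integrin gene was called by edgeR. After GC correction ITGA5, ITGB3 and ITGB8 were called higher and ITGA3 lower. FN1, fibronectin, had 367 and 349 CPM with BIBR1532, against 81.3 and 35.7 CPM in control (2.61 ± 0.51, adjusted p = 0.0151).

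CYP1A1, an enzyme that oxidises foreign aromatic compounds and the classical target of the aryl hydrocarbon receptor, had 144 and 134 CPM with BIBR1532, against 3.44 and 5.00 CPM in control. The groups were apart by a log2 fold change of 5.05 ± 0.50 (adjusted p = 0.000531), or 33.2-fold. It was edgeR's only call among the 8 tested genes of the receptor and its targets, of which DESeq2 and limma voom each called 2 higher. CYP1B1, another target, had 9.28 and 13.3 CPM with BIBR1532, against 2.56 and 1.61 CPM in control, just outside the threshold (2.41 ± 0.62, adjusted p = 0.0507), and was called after GC correction (adjusted p = 0.0146). AHRR and TIPARP had log2 fold changes of 1.14 and 0.50, and the receptor gene AHR -0.47 ± 0.57, none of them called, and the value of AHR was 0.62 with the GC trend of each library removed. The promoter of CYP1A1 is shown since its single match to the receptor's core letters GCGTG, in capitals, begins at position -57 from the gene start.
CYP1A1, chr15:74725479-74725778, minus strand: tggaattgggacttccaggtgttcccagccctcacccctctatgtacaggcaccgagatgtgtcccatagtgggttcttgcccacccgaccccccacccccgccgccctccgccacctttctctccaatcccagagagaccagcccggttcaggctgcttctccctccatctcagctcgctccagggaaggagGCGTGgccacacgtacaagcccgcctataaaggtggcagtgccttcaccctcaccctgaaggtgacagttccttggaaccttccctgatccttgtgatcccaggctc
These 5 letters were in 36.5% of all promoters of this length, so the match is common. Among all genes called higher they were in 96 of 315 promoters (30.5%). For each motif, called genes were counted with a single promoter each, while the set of all promoters was not reduced in this way. Elements further from the start were outside the window. AKR1B10 was edgeR's only call among 25 tested NRF2 targets and ferritins. Of these, DESeq2 called 2 higher and 1 lower, and limma voom 3 higher and 1 lower. ANGPTL4 was edgeR's only call among 17 hypoxia-inducible genes, of which DESeq2 called 1 higher and limma voom 3 higher and 1 lower. ANGPTL4, a secreted inhibitor of lipoprotein lipase, had 145 and 131 CPM with BIBR1532, against 2.333 and 3.304 CPM in control (5.63 ± 0.54, adjusted p = 0.000509).

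Interferon-stimulated genes went both ways. Of 32 tested, 21 had a log2 fold change above 0 and 11 below 0, with a median of 0.51. OAS2, IFI6 and OAS1 were called higher by edgeR and none lower, while DESeq2 and limma voom each called 6 higher and 1 lower. OAS2, a sensor of double-stranded RNA, had 17.5 and 20.9 CPM with BIBR1532, against 3.63 and 2.95 CPM in control (2.53 ± 0.49, adjusted p = 0.0135). None of 14 tested genes of antigen presentation by MHC class I was called by edgeR, 3 had an unadjusted p under 0.05, and DESeq2 and limma voom each called 2 higher. CD274, which encodes PD-L1, a brake on T cells, was called lower, at 40.1 and 52.1 CPM with BIBR1532, against 324 and 139 CPM in control (log2 fold change -2.33 ± 0.50, adjusted p = 0.0248). Its control libraries differed from each other by more than its BIBR1532 libraries, and the groups did not overlap. It was not called after GC correction (adjusted p = 0.0573).

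The largest rises by fold were in genes with almost no counts in control cells. They included UBD, a ubiquitin-like protein induced in inflammation, at 18.1 and 17.8 CPM with BIBR1532, against 0.0765 and 0.268 CPM in control (log2 fold change 6.90 ± 0.70, adjusted p = 0.000584). PI3, the protease inhibitor elafin, had 7.89 and 6.47 CPM with BIBR1532, against 0.153 and 0 CPM in control. Genes of the outer skin layer were also in this group. LCE1F, a late cornified envelope gene, had 55.02 and 46.49 CPM with BIBR1532, against 0.421 and 0.446 CPM in control (6.86 ± 0.61, adjusted p = 0.000472). LCE1D had 333 counts over the 2 BIBR1532 libraries and 3 over the control libraries, a ratio of 96.7 with a 95% counting interval of 32.8 to 471. Keratin KRT6A had 12.3 and 12.9 CPM with BIBR1532, against 0.268 and 0.357 CPM in control (5.35 ± 0.58, adjusted p = 0.000623), and it was the only call among 8 tested keratinocyte markers. The 12 keratinocyte markers summed to 217 and 199.9 CPM with BIBR1532, against 199.6 and 323.8 CPM in control. PRAMEF1 and PRAMEF12, germline and embryonic genes that are silent in most tissues, and TRIM64 and TRIM64B were in the same range. PRAMEF12 had 46.5 and 44.6 CPM with BIBR1532, against 0.497 and 0.625 CPM in control (6.35 ± 0.67, adjusted p = 0.000623). PRAMEF1 had 357 counts with BIBR1532 and 2 in control, a ratio of 155.5 (42.7 to 1289), and TRIM64 226 and 2 counts, a ratio of 98.5 (26.9 to 818). PRAMEF, TRIM64, LCE1 and KRT6 genes have near-identical copies that can share reads, so the value of a single copy is uncertain. Intervals and limits from counts cover counting error only.

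Genes of melanocyte identity were mixed. PMEL, a pigment granule protein, was edgeR's only call among 14 tested genes, of which DESeq2 called 1 higher and 1 lower and limma voom 3 higher and 1 lower. It stood at 5.69 and 4.13 CPM with BIBR1532, against 0.382 and 0.446 CPM in control (log2 fold change 3.57 ± 0.54, adjusted p = 0.00407). MITF, the master regulator of pigment cells, had 6.46 and 9.68 CPM with BIBR1532, against 46.6 and 34.0 CPM in control, and missed the threshold (-2.32 ± 0.67, adjusted p = 0.0813). It was called lower after GC correction, with a log2 fold change of -1.63 (adjusted p = 0.0405). Among 20 genes of dedifferentiated melanoma, IL1B was called higher, and CAV1 and SOX9 lower. AXL, a receptor kinase of that state, had 1193 and 1131 CPM with BIBR1532, against 1432 and 1624 CPM in control, and was not called (-0.39 ± 0.41, adjusted p = 0.614). CAV1, caveolin, had 78.5 and 80.2 CPM with BIBR1532, against 343 and 294 CPM in control (-2.01 ± 0.43, adjusted p = 0.0247). Of 6 tested leukocyte markers, edgeR called ITGAM higher, with 194 counts with BIBR1532 and 3 in control, a ratio of 56.3 (19 to 276). All 6 lay above 0, with a median of 1.79, and DESeq2 and limma voom each called 3 higher. LCP1, for instance, had 10.9 and 12.1 CPM with BIBR1532, against 2.45 and 3.04 CPM in control. The sum of 13 leukocyte markers was 661 and 609 CPM with BIBR1532, against 185.2 and 421.6 CPM in control, and CD68, a lysosomal protein that many cells make, gave most of it, at 631.5 and 577.8 CPM with BIBR1532, against 177 and 414.1 CPM in control. The lineage genes SPI1 and CD3E had at most 3 counts in each library. KDR and ERG were called among the endothelial markers, while CDH5 had at most 4 counts in each library. ERG had 26 counts with BIBR1532 and 0 in control, at least 7.55-fold higher.

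**Figure D3:**
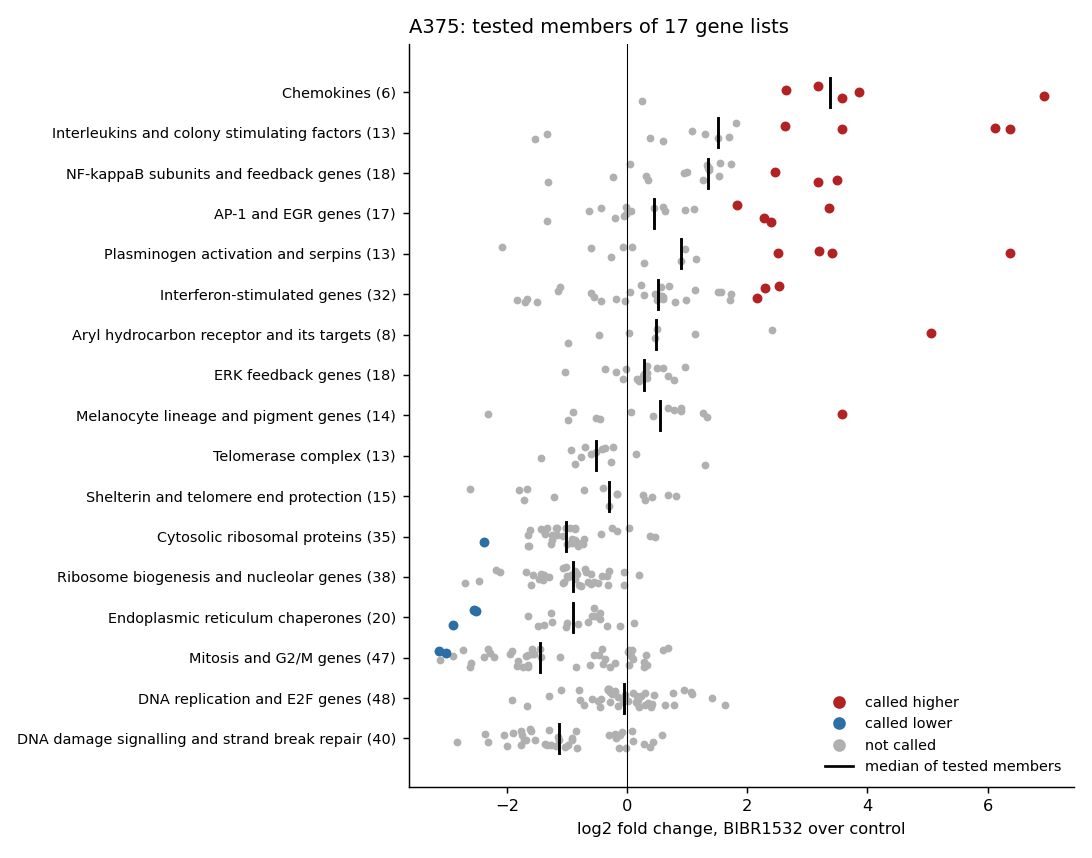
Log2 fold change of BIBR1532 over control for the tested members of 17 gene lists, with the number tested in brackets. Each point is 1 gene, red where called higher, blue where called lower and grey where not called, and the black bar is the median of the tested members. Chemokines stand furthest to the right, with a median of 3.38, and mitosis genes furthest to the left, with a median of -1.46 and 2 of 47 called.

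Several of the largest falls were in genes of cell surface proteins. KCNH1, a voltage-gated potassium channel expressed in many tumours, had 3.95 and 4.72 CPM with BIBR1532, against 116 and 101 CPM in control. Replicates were close in both groups, and the log2 fold change was -4.65 ± 0.50 (adjusted p = 0.000623), 25.1-fold lower. CDH4, a cadherin of the nervous system, had 1.17 and 0.778 CPM with BIBR1532, against 18.2 and 23.7 CPM in control (-4.42 ± 0.56, adjusted p = 0.00158). KCNH1 was the only call among 14 tested potassium channel genes, and CDH4 fell while CDH3 rose among 7 cadherins (2.99 ± 0.65, adjusted p = 0.0259). MME, the surface protease neprilysin, LEPR, the leptin receptor, NEGR1, a neuronal adhesion protein, and SPNS2, an exporter of sphingosine-1-phosphate, fell by 3.01, 3.13, 3.11 and 3.09 on the log2 scale. After GC correction their log2 fold changes were -2.02, -1.87, -1.89 and -3.39.

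Secreted growth factors and transcription factors were among the falls as well. BDNF, a neurotrophin, had 4.71 and 5.88 CPM with BIBR1532, against 51.2 and 46.3 CPM in control (log2 fold change -3.20 ± 0.56, adjusted p = 0.00875). TGFB2, a transforming growth factor, had 0.224 and 0.535 CPM with BIBR1532, against 5.43 and 2.14 CPM in control (-3.34 ± 0.65, adjusted p = 0.0147), and was not called after GC correction (-2.35, adjusted p = 0.0591). ANKRD1, a target of the Hippo pathway effector YAP, had 26.1 and 31.9 CPM with BIBR1532, against 169 and 169 CPM in control (-2.54 ± 0.49, adjusted p = 0.0141). MYC had 92.5 and 89.6 CPM with BIBR1532, against 388 and 466 CPM in control (-2.23 ± 0.42, adjusted p = 0.0115). All 4 genes were lower in both BIBR1532 libraries than in either control library. SOX9, a neural crest factor, FZD2, a Wnt receptor, and AMD1, an enzyme of polyamine synthesis, were called lower with log2 fold changes of -2.23, -1.98 and -2.54, though with symbols only SOX9 and FZD2 were not called (adjusted p = 0.068 and 0.0842). MYC and AMD1 were the calls among 14 tested genes of the MYC network and polyamine synthesis.

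Fold changes varied with transcript base composition. Genes with symbols were divided into eighths by the GC content of their transcripts. In the eighth with the lowest GC content, 29.8% to 39.5%, the median log2 fold change was -1.22, with 14 genes called higher and 21 lower, and in the highest eighth, 61.3% to 74.5%, it was 0.17, with 55 higher and 5 lower. Over the mean of the 6 A375 libraries, genes of the lowest eighth stood at medians of -0.61 and -0.26 with BIBR1532, against 0.71 and 0.80 in control. The 6-thio-dG libraries stood at -1.34 and 0.67 there, so the trend also differed widely between replicates of 1 treatment. With 2 libraries per group, a trend of the compound and a trend of single libraries cannot be told apart. Called falls had a median GC content of 41.0%, and called rises 52.7%. With the GC trend of each library removed, 819 genes were called higher and 298 lower, and 422 of the 431 rises and 54 of the 73 falls with a GC value were still called. The part of base composition in these results was not tested beyond this correction.

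**Figure D4:**
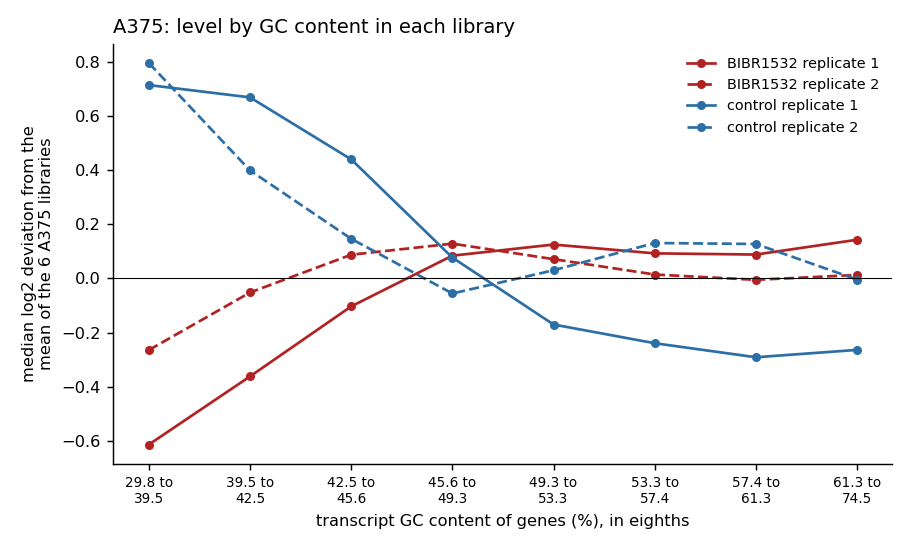
Median log2 deviation of genes from their mean over the 6 A375 libraries, by eighths of transcript GC content, for each BIBR1532 library (red) and control library (blue). In the lowest eighth the BIBR1532 libraries stand at -0.61 and -0.26 and the control libraries at 0.71 and 0.80, and from the fifth eighth on control replicate 1 lies below the other 3. The 6-thio-dG libraries, at -1.34 and 0.67 in the lowest eighth, are not drawn.

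Several housekeeping groups lay below the median of all genes, with few single calls, and the GC trend bears on them to different degrees. Among all genes with symbols, 3149 of 13595 had an unadjusted p under 0.05. Of 47 tested mitosis genes, KIF18A, a mitotic kinesin, and ECT2, which drives the closing of the cleavage furrow, were called lower and none higher. ECT2 had 3.63 and 5.11 CPM with BIBR1532, against 26.9 and 49.9 CPM in control (log2 fold change -3.13 ± 0.73, adjusted p = 0.0374, and -2.02 after GC correction). The median of the list was -1.46, and -0.65 with the GC trend removed, and its genes had a median GC content of 41.4%. KIF18A was not called after GC correction (adjusted p = 0.0721). The 40 genes of DNA damage signalling and repair had no call by edgeR, 16 with an unadjusted p under 0.05, and 4 lower genes by DESeq2 and 5 by limma voom. Their median was -1.14, and -0.49 after GC correction. The 48 genes of DNA replication had no call by edgeR, 6 with an unadjusted p under 0.05, 1 higher and 2 lower genes by both DESeq2 and limma voom, and a median of -0.04.

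For genes of protein synthesis and folding the GC correction changed the medians by less than for mitosis and DNA damage genes, though not evenly. Cytosolic ribosomal proteins had a median log2 fold change of -1.02, and -1.07 after GC correction, with RPL7 alone called lower of 35 tested. Their summed level was 24810 and 24440 CPM with BIBR1532, against 35040 and 78610 CPM in control. Both controls were higher, but much of the gap in this sum lay in control replicate 2, the library that stood apart. RPL7 had 275 and 305 CPM with BIBR1532, against 1018 and 2022 CPM in control (-2.39 ± 0.60, adjusted p = 0.0491), and it was not called after GC correction (adjusted p = 0.0642). Genes of ribosome biogenesis had a median of -0.90, both before and after GC correction, and none of 38 was called by edgeR, although 20 had an unadjusted p under 0.05, and DESeq2 called 5 lower and limma voom 9. Of 20 chaperone genes of the endoplasmic reticulum, HSP90B1, CANX and DNAJB9 were called lower and none higher, with a median of -0.91, and -0.71 after GC correction. HSP90B1, the reticulum's HSP90, had 203 and 254 CPM with BIBR1532, against 1220 and 1385 CPM in control (-2.51 ± 0.62, adjusted p = 0.0451), and CANX, calnexin, fell by 2.54 on the log2 scale. At a minimum of 1 CPM none of these 3 was called (adjusted p = 0.0511 to 0.057). With the 12 libraries of both lines in 1 fit, the calls in these lists were 15 lower ribosomal proteins, 16 lower genes of ribosome biogenesis, 10 lower chaperones and 22 lower mitosis genes, with none higher. Many more genes were called lower in that fit, 2121 of 29114, and 1481 of the 14439 with symbols. That fit shares a coefficient of variation of 25.8%, below that of the A375 libraries alone. Mitochondrial ribosomal proteins had a median of -0.73, and -0.44 after GC correction. They summed to 1838 and 1797 CPM with BIBR1532, against 2045 and 3899 CPM in control, so control replicate 2 again held much of the gap. In edgeR's test no gene was called among these 32 (8 with an unadjusted p under 0.05, and 1 lower by DESeq2 and 2 by limma voom). The same was so of 18 heat shock chaperones (8 with an unadjusted p under 0.05, 1 higher and 4 lower by DESeq2, 1 higher and 3 lower by limma voom). It was also so of 23 genes of cholesterol synthesis (3 with an unadjusted p under 0.05, none called by DESeq2 or limma voom).

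Genes of cell cycle arrest were followed because telomere damage acts through them. CDKN1A, the p21 cell cycle inhibitor, had 652 and 594 CPM with BIBR1532, against 183 and 345 CPM in control. Both BIBR1532 libraries were above both controls, yet the fold change missed the threshold (1.24 ± 0.46, adjusted p = 0.149), and it was called after GC correction (adjusted p = 0.0457). MDM2 had 89.8 and 123 CPM with BIBR1532, against 133 and 60.5 CPM in control, with the groups overlapping (0.14 ± 0.55, adjusted p = 0.91), and its fold change was -0.31 without control replicate 2. GDF15, a stress-induced cytokine, was not called (-1.08 ± 0.48, adjusted p = 0.208), nor was CDK4 (-1.12 ± 0.49, adjusted p = 0.202). BCL2A1, a survival protein, was the only call among 16 genes of the BCL2 family, at 1.84 and 2.53 CPM with BIBR1532, against 0.191 and 0.357 CPM in control. BCLAF1, a splicing and death-related factor, fell by 3.34 on the log2 scale (adjusted p = 0.0498), or by 2.06 after GC correction, and was not called at a minimum of 1 CPM, with symbols only or with crossed replicate numbers (adjusted p up to 0.273).

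The effect in A375 was set beside that in LOX-IMVI BR. BIBR1532 gave 10802 calls of 24087 genes tested in LOX-IMVI BR (44.8%), where replicates lay much closer together (coefficient of variation 4.55%). Of the A375 rises, 359 were tested in LOX-IMVI BR, and 187 were called higher there and 44 lower. Of the A375 falls, 110 were tested, and 36 were called lower and 35 higher. The difference between the lines was called for 1059 of 29114 genes (3.64%), among them 172 of the 790 A375 rises and 62 of the 134 falls. This test uses 1 spread for both lines. It also uses the A375 libraries by which the rises and falls were picked, so their shares are only a description. CSF2, IL6, CXCL8 and TRAF1 had log2 fold changes of 6.12, 3.58, 3.18 and 3.49 in A375, and 6.69, 3.87, 3.22 and 4.19 in LOX-IMVI BR, with the difference not called. IL1B and SERPINB2 rose in both lines and by more in A375, with log2 fold changes of 6.38 and 6.37 in A375, against 1.91 and 2.56 in LOX-IMVI BR. MMP9, ANGPTL4 and TENM4, a neuronal adhesion protein, were called higher in A375 and lower in LOX-IMVI BR. MYC, CD274, ANKRD1 and SNAPC1, a factor for small nuclear RNA genes, were called lower in A375 and higher in LOX-IMVI BR. MYC, for instance, had 1139 and 892 CPM with BIBR1532 in LOX-IMVI BR, against 425.2 and 411.7 CPM in its control.

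**Figure D5:**
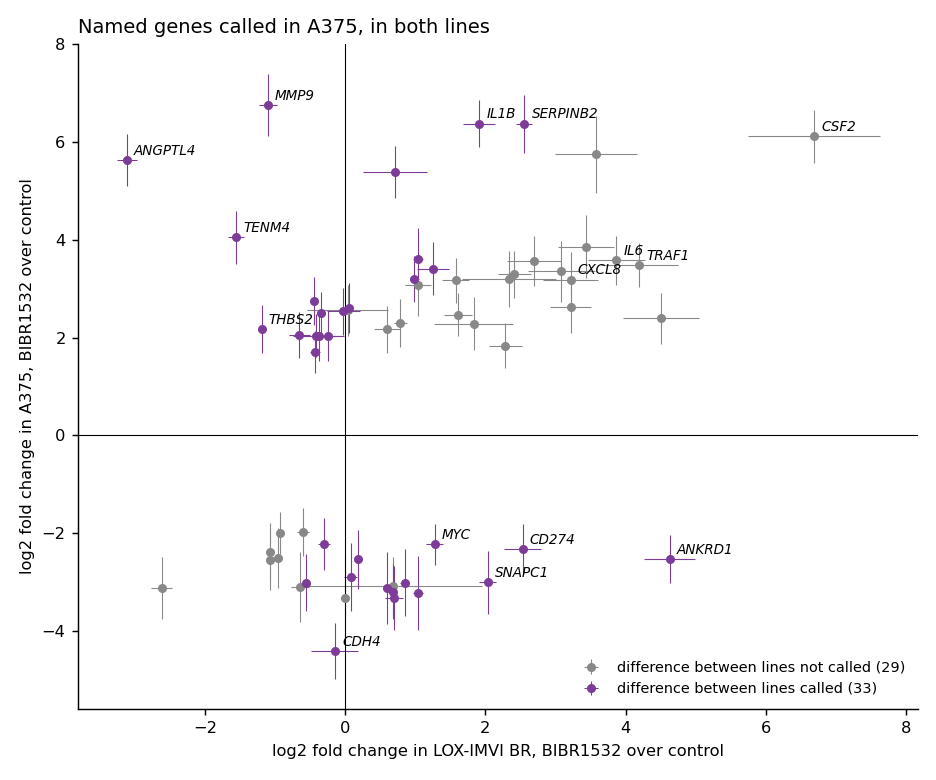
Log2 fold change of BIBR1532 over control in A375 (vertical) and LOX-IMVI BR (horizontal) for 62 named genes that were called in A375 and tested in both lines, with bars of 1 SE. The difference between the lines was called for 33 (purple) and not for 29 (grey). Genes in the upper left, such as ANGPTL4 and MMP9, and the lower right, such as ANKRD1 and CD274, moved in opposite directions.

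BIBR1532 at 25 µM was also compared directly with 6-thio-dG at 5 µM in A375, at doses that differ. Of 24026 genes, 1604 (6.68%) differed between the compounds, among them 370 of the 790 rises, higher with BIBR1532, and 26 of the 134 falls, lower with BIBR1532. The rises and falls were picked with the same BIBR1532 libraries, which by itself raises these shares, so they are only a description. IL1B had 301 and 279 CPM with BIBR1532, against 2.12 and 1.80 CPM with 6-thio-dG. CSF2, IL6 and CXCL8 were likewise higher with BIBR1532, by log2 differences of 8.405 ± 0.61, 6.54 ± 0.59 and 6.13 ± 0.66 (adjusted p = 8.7e-05, 0.000232 and 0.000671). CYP1A1 was higher by 1.90 ± 0.43 (adjusted p = 0.0227), with 144 and 134 CPM with BIBR1532, against 43.3 and 31.1 CPM with 6-thio-dG. Of the falls, 3 were higher with BIBR1532 than with 6-thio-dG, and of the rises 4 were lower. KCNH1 was 3.95 and 4.72 CPM with BIBR1532, against 4.495 and 3.112 CPM with 6-thio-dG (0.19 ± 0.45, adjusted p = 0.866), and CDH4 differed by -0.21 ± 0.56 (adjusted p = 0.883). MYC and CD274 were higher with BIBR1532 than with 6-thio-dG, by 1.96 ± 0.42 and 2.88 ± 0.52 (adjusted p = 0.0175 and 0.00888).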

How the data were processed

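The authors deposited raw counts per gene as 1 table with a column for each of the 12 libraries. STAR, featureCounts 1.5.1, Picard, GATK, hg19 and GRCh37 appear in the submitters' processing notes, with no role or order for any of them in the sources used here. Of 75253 rows, 54072 were NONCODE genes and 21153 had symbols. Symbols turned into dates left 24 rows without a usable name, and 4 rows with a repeated date (at most 0.000913% of counts) were dropped. Reads carry no strand, so overlapping genes on opposite strands cannot be told apart.

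The test was that of edgeR 4.0.16 under R 4.3.3 (robust quasi-likelihood, TMM, filterByExpr) on the 6 A375 libraries, with 3 residual degrees of freedom, because an earlier account of these data had found their replicates further apart than those of LOX-IMVI BR. The difference between the lines was fitted to all 12 libraries. A call is an adjusted p (Benjamini-Hochberg) under 0.05. SE is the absolute log2 fold change over the square root of F. GC content is that of the longest GENCODE coding transcript, found for 20998 symbols. Alternatives were other scalings, filters and fits, DESeq2 1.42.0, limma 3.58.1 voom, a GC correction, a replicate block and each library left out. The test was checked on simulated counts.

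Genes were named by rule: the 12 largest rises and falls with symbols whose higher group averaged 5 CPM or more, without overlap between groups, up to 4 called members of each list by adjusted p (or its most abundant member where none was called), a set followed whatever its result, and the 5 largest opposite effects between the lines. The text gives a selection, and further members were named with their values known. The members and lists were chosen with earlier results of these data known. Promoters came from RefSeq on GRCh38.p14.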

Additional observations from a re-analysis of the deposited data

Results flagged for a closer look

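The effect of BIBR1532 differed between A375 and LOX-IMVI BR for 39 of 93 named genes by edgeR's test of the difference itself, fitted to all 12 libraries with 1 spread for both lines (coefficient of variation 25.8%). These genes were picked partly for large or opposite effects, so their share is only a description. Numbers in brackets are the log2 fold change in A375 minus that in LOX-IMVI BR. Called higher in A375 and lower in LOX-IMVI BR were ANGPTL4 (8.735), COL6A3 (2.09), CTSK (2.66), MMP9 (7.85), TENM4 (5.525), TFPI2 (2.80), THBS2 (3.31) and TIMP1 (3.14). Called lower in A375 and higher in LOX-IMVI BR were AMD1 (-2.77), ANKRD1 (-7.21), BDNF (-3.93), CD274 (-4.91), ECT2 (-3.78), KIF18A (-3.91), MYC (-3.56), PDE4D (-4.32), SNAPC1 (-5.11) and TGFB2 (-4.11). The LOX-IMVI BR calls come from that line's own fit, with a coefficient of variation of 4.55%, so small changes were called. Its log2 fold changes were only 0.18 for AMD1, -0.35 for TFPI2, -0.43 for COL6A3 and -0.45 for TIMP1. For such genes most of the difference lay in A375. Called higher in A375 and not called lower in LOX-IMVI BR were ACACB (2.36), CTSS (4.61), FN1 (2.51), IL1B (4.42), KDR (2.23), LCE1F (8.07), OAS2 (2.49), PLAT (2.15), PLAU (2.08), PMEL (4.16), PTGS2 (2.51), SERPINB2 (3.79) and TIMP3 (2.40). Called lower in A375 and not called higher in LOX-IMVI BR were CDH4 (-4.30), DNAJB9 (-3.05), KCNH1 (-5.77), MME (-2.51) and SOX9 (-1.96). Not called in A375 by itself, but with a difference between the lines, were GDF15 (-3.90), MITF (-3.725) and MYBL1 (-5.26). KCNH1, LCE1F and PMEL were too low in LOX-IMVI BR to be tested there by itself. Groups of 2 libraries are too small for a search for single outlying samples.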

How the results depend on the processing

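Both the number of calls and the balance of directions depended on the fit. For A375, 790 higher and 134 lower genes became 2473 and 2121 with all 12 libraries, 1668 and 1981 with the 4 BIBR1532 and control libraries, 1690 and 1025 with upper-quartile factors, and 1441 and 1499 with no low-count filter. They became 448 and 43 with symbol-named genes only. The lower calls were 83 at a minimum of 1 CPM, 637 by DESeq2, 909 by limma voom and 298 after GC correction. The replicate numbers did not pair the samples (correlations of deviations -0.137 between BIBR1532 and control, 0.350 between BIBR1532 and 6-thio-dG and -0.0888 between 6-thio-dG and control), and the replicate block gave 1289 higher and 1369 lower genes, among them all 924 calls, and 333 lower with the GC correction. With the numbers crossed, added after seeing the data, the calls were 1652 and 1471. Leaving out 1 library gave 0 to 348 higher and 0 to 34 lower genes. Fits without a control library, added after seeing the data, gave 571 and 391 (DESeq2, without control replicate 1), 550 and 65 (DESeq2, without control replicate 2), 2902 and 2370 (12 libraries, without control replicate 1) and 2017 and 1117 (12 libraries, without control replicate 2). Against 6-thio-dG, 1604 calls became 2116 with the replicate block, 4664 with 12 libraries, 2971 with crossed numbers, 2943 with no filter, 688 with symbols only, 2632 with upper-quartile factors and 392 to 404 with 1 BIBR1532 library left out. In LOX-IMVI BR, 10802 calls became 1046 with 12 libraries. For the difference between the lines, 1059 calls became 2076 by DESeq2, 3002 with no filter and 142 to 2268 with 1 library left out. Of 80 called named genes, 65 were called in all 13 settings that kept every BIBR1532 and control library, 57 in all 4 added fits without a control library, 39 in both edgeR fits without a BIBR1532 library and 0 in edgeR's fits without a control library. Among the 93 named genes followed, directions changed for 3, none of them called. The AHR log2 fold change was 0.619 after GC correction and 0.646 with the replicate block added. The MDM2 log2 fold change ranged between -0.309 and 0.825 with 1 library left out, and was -0.291 (12 libraries) and -0.306 (DESeq2) without control replicate 2. The TERT log2 fold change ranged between -0.750 and 0.574 with 1 library left out, and was 0.550 (12 libraries) and 0.494 (DESeq2) without control replicate 1. The causes were not tested.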

Other observations

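A group of early embryonic genes was also higher with BIBR1532 in A375. PRAMEF1, PRAMEF12, TRIM64 and TRIM64B, which were among the largest rises, belong to a set of genes that the embryonic transcription factor DUX4 is known to switch on in human cells. A list of 49 such genes and relatives was therefore written down after these values were seen, and it has no test of its own. The table held 47 of them, 23 had enough counts to be tested, 20 of these 23 were called higher by edgeR and none lower (3.29% of all genes were called higher), and 13 had no count in any of the 4 libraries. Most tested members were near 0 in control and passed the filter on low counts through their level with BIBR1532. ZSCAN4, a marker of the first embryonic cleavages, had 12.4 and 16.05 CPM with BIBR1532, against 0.153 and 0.357 CPM in control (log2 fold change 5.92 ± 0.74, adjusted p = 0.00141). TRIM43 had 7.35 and 8.46 CPM with BIBR1532, against 0.191 and 0.0893 CPM in control, and PRAMEF2 12.6 and 13.03 CPM with BIBR1532, against 0.191 and 0.268 CPM in control. KDM4E, a histone demethylase gene, had 27 and 27 counts with BIBR1532, against 1 and 0 in control, and MBD3L2 13 and 17 counts, against 0 and 0. CCNA1, SLC34A2 and ZNF296 were the tested genes that were not called. Summed over the list, the level was 205.9 and 208.2 CPM with BIBR1532, against 20.7 and 24.2 CPM in control. With 6-thio-dG the sum was 76.3 and 51.9 CPM. In LOX-IMVI BR the whole list had 104 counts over the 2 BIBR1532 libraries and 112 over the 2 control libraries. DUX4 itself was listed at 0 in all 6 A375 libraries. DUX4, PRAMEF and TRIM genes lie in near-identical copies, so their single values are uncertain.

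The late cornified envelope genes and the type 6 keratins moved with them in the same libraries. All 5 late cornified envelope genes tested were called higher, and their summed level was 80.5 to 96.3 CPM with BIBR1532, against 1.22 to 1.34 CPM in control. The 3 KRT6 genes summed to 395 to 416 CPM with BIBR1532, against 3.82 to 9.91 CPM in control. These families were looked at after their values were seen.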
